A study of Mus musculus with 18 samples.

Results

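The integrated stress response and the unfolded protein response were followed through 35 genes, matched by symbol among 55183 genes of the cell table and 19464 genes of the whole-brain table. They were kept in 2 arms. The ATF4 arm holds 16 genes, which are Atf4, its partner and downstream factors, and the amino acid genes they control. The ER arm holds 19 genes, of which 13 encode chaperones and folding enzymes of the endoplasmic reticulum (ER), 4 serve the degradation of misfolded ER proteins and 2 encode the factors Xbp1 and Atf6.

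In the integrated stress response, kinases that sense amino acid shortage, haem shortage, double-stranded RNA or ER stress phosphorylate the initiation factor eIF2 alpha, which slows general translation and favours translation of Atf4. ATF4 then drives genes of amino acid synthesis, uptake and stress control. In the unfolded protein response, the ER sensors IRE1 and ATF6 act through spliced Xbp1 and cleaved ATF6 on genes for chaperones and ER-associated degradation, and the third sensor, PERK, feeds into eIF2 alpha. A gene-level transcript measure reads neither Atf4 translation nor Xbp1 splicing nor ATF6 cleavage.

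RNA was sequenced from PTCP53 304, a line of mouse medulloblastoma cells of the Sonic hedgehog (SHH) type that is Ptch1+/-; Trp53-/-, and from whole mouse brains. The cells received CT-179, which inhibits the transcription factor OLIG2, or vehicle, for 24 h (day 1) or 144 h (day 6). The brains came from mice labelled Ptch1+/-; IR, where the labels do not explain IR, that were dosed with CT-179 or vehicle from postnatal day 3 and taken at postnatal day 15, after 12 days. Each of the 6 groups had 3 libraries, and all cell groups carry the same genotype and come from 1 line. A whole brain pools all its cell types, with any tumour it holds, so fewer cells of a type and less RNA per cell cannot be told apart. Whether replicates came from different cultures or different animals is not labelled, so a p-value here reflects the spread among the libraries alone, and that spread may be technical. Levels are in FPKM, which counts fragments per kilobase and scales them to library depth.

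At 144 h, CT-179 replicate 2 stood apart from its group. Its lowest correlation with a replicate was 0.981, and over the 35 genes the median coefficient of variation was 20.1% in CT-179 at 144 h with this library and 2.38% without it, against 2.07% in vehicle at 144 h. The deviation followed transcript length, with a Spearman's rho of -0.70 between exonic length and the ratio of replicate 2 to the mean of replicates 1 and 3. All 6 genes under 2000 bases were higher in replicate 2, at 1.29 to 2.22 times that mean, and all 5 genes over 6000 bases were lower, at 0.386 to 0.797 times. The counts of the 35 genes called at 144 h are therefore given with and without that library. For many single genes the text gives the log2 difference at 144 h only without it. The plot of log2 differences at 144 h shows both values for each of the 35 genes. Named genes of other lists, except Slc7a11, have their value at 144 h only without that library. The levels of markers and Malat1 include it. Implied depth was 2.95e+07 to 7.08e+07 reads in the cell libraries and 1.77e+07 to 6.35e+07 in the brain libraries, the lowest being vehicle brain replicate 2, in which 12.5% of implied reads came from Lars2 and Gm15564, against 0.0638% to 0.0731% in the other brains. The nuclear RNA Malat1 lay lower in every CT-179 cell library than in any vehicle library of its time, at 8.72 to 10.2 FPKM in CT-179, against 20.8 to 23.5 FPKM in vehicle at 24 h, and 23.6 to 39.9 FPKM in CT-179, against 64.5 to 76.6 FPKM in vehicle at 144 h. Of the SHH markers, Atoh1 was at 0.0254 FPKM or less in every cell library, so this defining marker of granule precursors was absent, while Gli1 was present at 144 h, with a mean of 11.1 FPKM in CT-179 and 20.4 FPKM in vehicle cells. Olig2, whose protein is the target of CT-179, had mean levels of 203 FPKM in CT-179 and 201 FPKM in vehicle cells at 144 h.

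**Figure D1:**
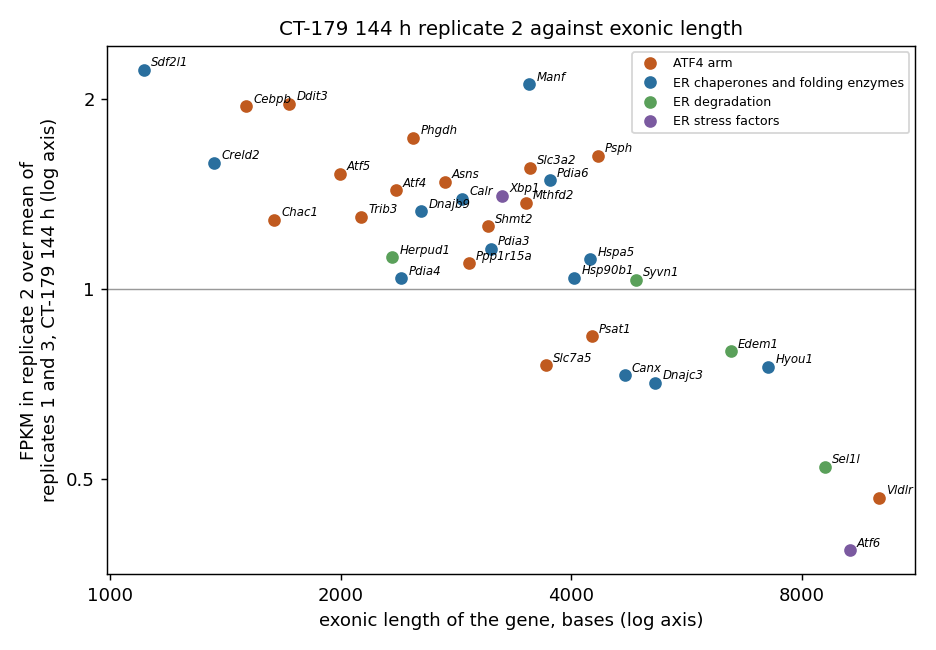
Ratio of CT-179 144 h replicate 2 to the mean of replicates 1 and 3 (log axis) against exonic length in bases (log axis), 1 point per gene, coloured by arm. The ratio falls with length, from 2.22 for the shortest gene, Sdf2l1, and it lies below 1 for all 5 genes over 6000 bases.

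Among the promoters of these genes, matches to the ER stress response element were found in the ER arm and not in the ATF4 arm. The ER arm is made of known unfolded protein response genes, some of them known through this element, so the match is a description. RefSeq promoter windows of mouse build GRCm38.p6, each 250 bases before to 50 bases after a start, were found for 31 of the 35 genes. Slc7a5, Hyou1, Manf and Atf6 are named only. The ER stress response element, CCAAT followed after 9 bases of any kind by CCACG, which ATF6 and XBP1 are known to bind together with NF-Y, was searched on both strands and lay in 8 of 16 ER arm genes with a window and in 0 of 15 ATF4 arm genes. It lay in 39 of 32851 windows in all, or 0.119%. The 8 were the chaperone genes Hspa5, Hsp90b1, Calr, Canx, Pdia6, Dnajc3 and Creld2 and the ubiquitin ligase gene Syvn1, and Hsp90b1 held a match on each strand. The related element ERSE-II, ATTGG followed after 1 base of any kind by CCACG, lay in 12 windows (0.0365%), among these genes in Herpud1 alone, and the element UPRE, TGACGTGG, lay in 222 windows (0.676%) and in none of these genes. A CARE-like core, TGATGNAA, of the elements that ATF4 with C/EBP partners is known to bind, lay in 1304 windows (3.97%), in 4 of 15 ATF4 arm genes (Trib3, Chac1, Asns and Vldlr) and in 1 of 16 ER arm genes (Herpud1). No match of 1 motif overlapped that of another. A match describes the letters of the window and does not show binding.

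The 250 bases before the start are shown 5′ to 3′ for 5 chaperone genes with the ER stress element, for Herpud1, which holds both ERSE-II and the CARE-like core, and for Asns and Chac1 from the ATF4 arm. Capitals mark the motif matches, which read as the reverse complement where the match is on the opposite strand.
Hspa5 (chr2:34771840-34772089, plus strand): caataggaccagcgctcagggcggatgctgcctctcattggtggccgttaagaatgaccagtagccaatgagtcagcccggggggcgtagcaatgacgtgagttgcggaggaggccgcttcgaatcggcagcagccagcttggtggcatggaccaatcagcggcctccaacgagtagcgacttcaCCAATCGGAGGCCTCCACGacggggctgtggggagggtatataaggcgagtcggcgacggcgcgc
Hsp90b1 (chr10:86705445-86705694, minus strand): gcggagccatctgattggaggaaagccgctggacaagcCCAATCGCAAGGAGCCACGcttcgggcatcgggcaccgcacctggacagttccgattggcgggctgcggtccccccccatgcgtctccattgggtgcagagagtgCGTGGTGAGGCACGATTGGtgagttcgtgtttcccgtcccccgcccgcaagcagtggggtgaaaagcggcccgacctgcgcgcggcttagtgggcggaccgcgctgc
Calr (chr8:84846932-84847181, minus strand): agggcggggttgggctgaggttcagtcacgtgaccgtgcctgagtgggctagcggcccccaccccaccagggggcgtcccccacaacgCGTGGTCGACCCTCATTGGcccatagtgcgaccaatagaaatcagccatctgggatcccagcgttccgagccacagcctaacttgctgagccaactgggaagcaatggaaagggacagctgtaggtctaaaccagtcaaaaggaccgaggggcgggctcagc
Pdia6 (chr12:17266339-17266588, plus strand): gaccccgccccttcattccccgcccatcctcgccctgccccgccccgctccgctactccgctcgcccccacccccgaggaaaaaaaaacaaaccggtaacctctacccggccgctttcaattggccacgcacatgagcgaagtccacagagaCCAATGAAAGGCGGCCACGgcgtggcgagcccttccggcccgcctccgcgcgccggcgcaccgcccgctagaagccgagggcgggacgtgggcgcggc
Dnajc3 (chr14:118937682-118937931, plus strand): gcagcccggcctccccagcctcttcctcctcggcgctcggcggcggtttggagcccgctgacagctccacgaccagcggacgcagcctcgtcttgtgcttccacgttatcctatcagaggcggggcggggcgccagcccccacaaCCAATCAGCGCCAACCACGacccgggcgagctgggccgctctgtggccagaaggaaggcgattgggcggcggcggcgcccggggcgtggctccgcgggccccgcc
Herpud1 (chr8:94386179-94386428, plus strand): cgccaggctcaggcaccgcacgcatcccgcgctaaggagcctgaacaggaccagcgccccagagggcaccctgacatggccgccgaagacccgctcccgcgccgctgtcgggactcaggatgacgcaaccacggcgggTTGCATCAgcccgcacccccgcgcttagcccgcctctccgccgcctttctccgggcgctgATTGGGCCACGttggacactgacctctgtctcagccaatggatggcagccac
Asns (chr6:7693210-7693459, minus strand): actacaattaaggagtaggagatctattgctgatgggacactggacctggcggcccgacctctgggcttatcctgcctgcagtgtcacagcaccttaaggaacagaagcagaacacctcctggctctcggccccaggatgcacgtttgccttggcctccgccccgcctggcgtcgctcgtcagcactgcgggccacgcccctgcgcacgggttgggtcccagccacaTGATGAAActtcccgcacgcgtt
Chac1 (chr2:119350992-119351241, plus strand): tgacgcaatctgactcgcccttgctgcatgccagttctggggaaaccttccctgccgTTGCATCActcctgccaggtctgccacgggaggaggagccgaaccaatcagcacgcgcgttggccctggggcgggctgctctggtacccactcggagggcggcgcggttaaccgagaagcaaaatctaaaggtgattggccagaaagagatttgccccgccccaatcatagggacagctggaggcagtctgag
Counted back from the start, the ER stress element began at base 65 in Hspa5, 98 in Pdia6, 105 in Dnajc3, 162 in Calr, and 107 and 212 in Hsp90b1. The CARE-like core began at base 23 in Asns, 112 in Herpud1 and 193 in Chac1.

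In vehicle cells at 24 h, 3 ER chaperone genes headed the 35 transcripts, while Dnajb9, a co-chaperone gene, stood at 10.5 FPKM, the 29th of 35. Calr, the calcium-binding chaperone of glycoproteins, stood highest at 361 ± 3.26 FPKM (SD, n = 3), followed by Hsp90b1 (GRP94) at 239 ± 5.23 FPKM. The HSP70 chaperone gene Hspa5 (BiP), at 189 ± 4.21 FPKM, and Phgdh, the first enzyme of serine synthesis, at 189 ± 4.58 FPKM, did not differ beyond their spread. The lowest were Chac1, which degrades glutathione, at 0.916 ± 0.067 FPKM, Trib3, a pseudokinase that restrains ATF4, at 1.64 ± 0.154 FPKM, and Vldlr, a lipoprotein receptor, at 2.91 ± 0.667 FPKM. Ddit3 (CHOP), the factor tied to cell death under prolonged stress, was at 6.17 ± 1.32 FPKM, and Atf4 at 75.7 ± 3.17 FPKM. The brain table was normalised separately from the cell table, so levels across them are set side by side only. In vehicle brains Calr was again highest, at 194 ± 26.1 FPKM, Atf4 was at 98.1 ± 5.10 FPKM and Trib3 lowest at 0.451 ± 0.174 FPKM.

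In cells, the number of these transcripts called with CT-179 rested on replicate 2 and on the scaling, as it did for all genes. After 144 h, the serine synthesis genes Psat1 and Psph, the factor Cebpb and 5 chaperone or folding genes (Manf, Calr, Pdia3, Pdia4 and Pdia6) rose, and Asns, Mthfd2 and Sel1l fell, when replicate 2 was left out. These changes were of 0.10 to 0.24 on the log2(FPKM + 1) scale. With all 3 libraries, 0 of 35 genes passed limma's test at an adjusted p of 0.05, and 9 had an unadjusted p under 0.05, beside 3647 of all 12510 genes. Across all 12510 genes tested with all libraries, 0.512% were called higher and 3.37% lower. Without replicate 2, 8 of 35 rose and 3 fell, against 11.8% called higher and 16.9% called lower of 12459 genes tested, so the share that rose was above that of all genes and the share that fell below it, a difference for which no test was run. The split moved with the scaling, to 14 higher and 2 lower with median-of-ratios factors (22.3% and 11.4% of all genes) and to 4 higher and 7 lower in TPM (5.41% and 26.6% of all genes). Psat1, Psph, Cebpb, Manf, Asns and Mthfd2 passed in the same direction under both of these scalings and after a correction for transcript length, which called 6 genes higher and 3 lower (12.7% and 10.8% of all genes). In the mm10 positions of the deposited table these are Psat1 at chr19:15904678-15947337, Psph at chr5:129765558-129787449, Cebpb at chr2:167688915-167690418, Manf at chr9:106838312-106891979, Asns at chr6:7675169-7693254 and Mthfd2 at chr6:83305691-83325908. The strand of counting is not given in the sources used here, so reads in the 452 exonic bases that Psph shares with Cct6a, and the 312 that Cebpb shares with Tmem189, both on the opposite strand, cannot be told apart.

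**Figure D2:**
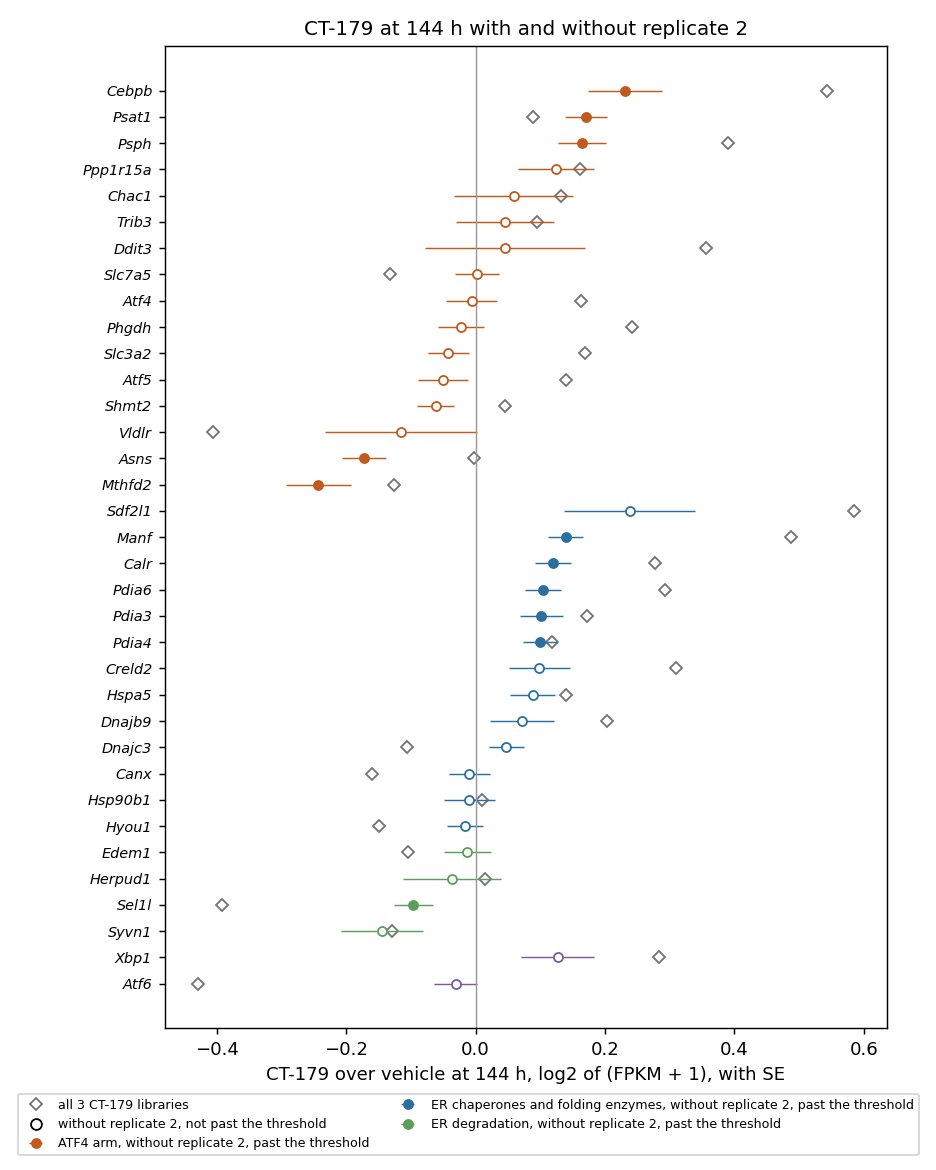
Log2 difference of CT-179 over vehicle at 144 h on log2(FPKM + 1), 1 row per gene, grouped by arm. Circles give the value without CT-179 replicate 2, filled where the adjusted p was under 0.05, bars give the SE and open diamonds the value with all 3 libraries. The 11 filled circles lie between -0.24 for Mthfd2 and 0.23 for Cebpb.

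Among factors of the ATF4 arm, Cebpb, a C/EBP factor that pairs with ATF4, had 26.5 and 27.0 FPKM in CT-179 replicates 1 and 3 and 52.1 FPKM in CT-179 replicate 2, against 22.5, 23.0 and 22.4 FPKM in vehicle. All 3 CT-179 libraries lay above all 3 vehicle libraries, with replicate 2 far above the rest. The log2 difference was 0.23 ± 0.06 (SE), adjusted p = 0.012 without replicate 2, and 0.54 ± 0.21 (SE), adjusted p = 0.15 with it. Atf4 itself had 36.8 and 36 FPKM in CT-179 replicates 1 and 3 and 52.1 FPKM in CT-179 replicate 2, against 35.4, 38.1 and 36.2 FPKM in vehicle, and replicates 1 and 3 overlapped the vehicle libraries. Its log2 difference was -0.01, adjusted p = 0.93 without that library. Ddit3 had 17.4 and 17.1 FPKM in CT-179 replicates 1 and 3 and 33.8 FPKM in CT-179 replicate 2, against 17.5, 16.9 and 15.7 FPKM in vehicle, overlapping likewise, with a log2 difference of 0.05, adjusted p = 0.82. The factor gene Atf5 and the regulators Trib3 and Chac1 did not pass either, at -0.05, 0.05 and 0.06 on the log2 scale. Ppp1r15a (GADD34), whose protein helps to dephosphorylate eIF2 alpha, had 5.02 and 4.84 FPKM in CT-179 replicates 1 and 3 and 5.41 FPKM in CT-179 replicate 2, against 4.41, 4.34 and 4.57 FPKM in vehicle. Its groups did not overlap, but the test was not passed with all libraries (0.16, adjusted p = 0.16) or without replicate 2 (0.12, adjusted p = 0.14).

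Serine and one-carbon genes of the same arm moved in different directions at 144 h. Psat1, which makes phosphoserine, had 68.4 and 72.2 FPKM in CT-179 replicates 1 and 3 and 59.1 FPKM in CT-179 replicate 2, against 61.7, 63 and 62.3 FPKM in vehicle. Replicates 1 and 3 were above every vehicle library, whereas replicate 2 was below them all. The log2 difference was 0.17 ± 0.03 (SE), adjusted p = 0.0033 without replicate 2, and 0.09, adjusted p = 0.35 with it. Psph, which makes serine from phosphoserine, had 21.6 and 21.5 FPKM in CT-179 replicates 1 and 3 and 35.1 FPKM in CT-179 replicate 2, against 19.1, 19.1 and 19.3 FPKM in vehicle, so that all CT-179 libraries were higher. Its log2 difference was 0.16 ± 0.04 (SE), adjusted p = 0.0075 without replicate 2 and 0.39, adjusted p = 0.15 with it. Phgdh, the enzyme upstream of both, had 274 and 263 FPKM in CT-179 replicates 1 and 3 and 466 FPKM in CT-179 replicate 2, against 278, 260.4 and 280.2 FPKM in vehicle. Its replicates 1 and 3 overlapped vehicle, and the log2 difference was -0.02, adjusted p = 0.68 without replicate 2.

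Asns, which makes asparagine, had 8.10 and 8.52 FPKM in CT-179 replicates 1 and 3 and 12.3 FPKM in CT-179 replicate 2, against 9.39, 9.40 and 9.68 FPKM in vehicle. Replicates 1 and 3 were below every vehicle library and replicate 2 above them all. The log2 difference was -0.17 ± 0.03 (SE), adjusted p = 0.0042 without replicate 2, and -0.00, adjusted p = 0.99 with it. Mthfd2, a mitochondrial folate enzyme, had 3.07 and 2.65 FPKM in CT-179 replicates 1 and 3 and 3.91 FPKM in CT-179 replicate 2, against 3.43, 3.59 and 3.66 FPKM in vehicle. It showed the same pattern, with a log2 difference of -0.24 ± 0.05 (SE), adjusted p = 0.0048 without replicate 2 and of -0.13, adjusted p = 0.31 with it. Shmt2, the mitochondrial enzyme that takes a carbon unit from serine, had a log2 difference of -0.06 and did not pass without replicate 2. The amino acid exchanger subunits Slc3a2 and Slc7a5, which form 1 transporter, had log2 differences of -0.04 and 0.00, and Vldlr one of -0.12. Of the 16 ATF4 arm genes, 3 rose and 2 fell without replicate 2, where 11.8% of all genes rose and 16.9% fell. The median log2 difference of the arm was -0.00, beside -0.01 over all genes. With all libraries the median was 0.14, beside -0.05.

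**Figure D3:**
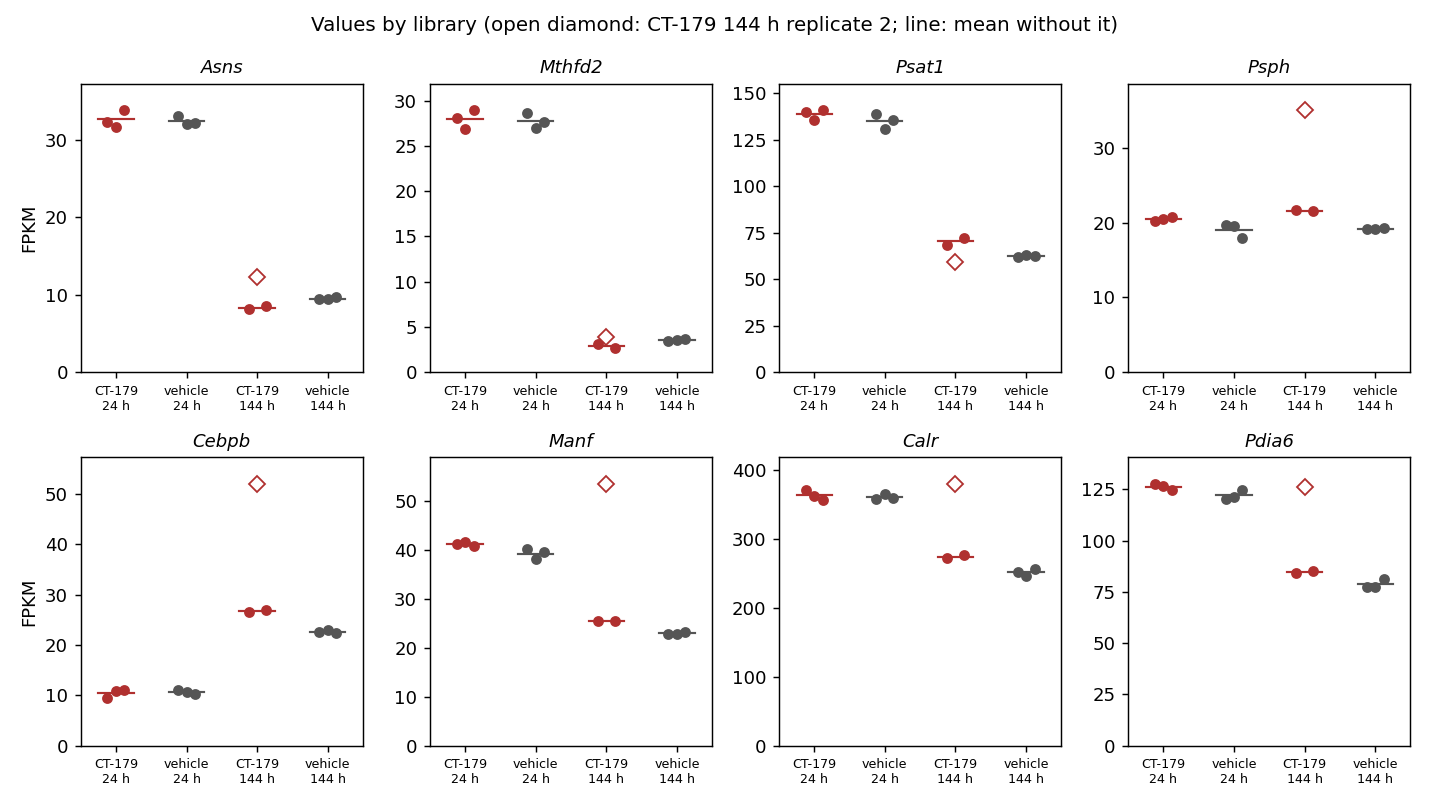
FPKM in every cell library for 8 of the 11 genes past the threshold at 144 h, in 4 groups with CT-179 left of vehicle at 24 h and at 144 h. The open diamond is CT-179 144 h replicate 2 and the line the group mean without it. At 144 h the diamond lies above the vehicle libraries for all but Psat1, where it lies below them.

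In the ER arm, 5 of 13 chaperone and folding genes rose at 144 h without replicate 2, and none fell, where 11.8% of all genes rose and 16.9% fell. Manf, a secreted ER stress protein, had 25.5 and 25.4 FPKM in CT-179 replicates 1 and 3 and 53.6 FPKM in CT-179 replicate 2, against 22.8, 22.9 and 23.3 FPKM in vehicle. All CT-179 libraries were higher and replicate 2 was more than 2 times any other. The log2 difference was 0.14 ± 0.03 (SE), adjusted p = 0.0035 without replicate 2, and 0.49, adjusted p = 0.17 with it. Calr had 272 and 276 FPKM in CT-179 replicates 1 and 3 and 381 FPKM in CT-179 replicate 2, against 253, 247 and 257 FPKM in vehicle, again with no overlap, and a log2 difference of 0.12 ± 0.03 (SE), adjusted p = 0.0092 without replicate 2.

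Members of the disulfide isomerase family, which form and reshuffle disulfide bonds, had the smallest of these rises. Pdia6 had 84.3 and 85.3 FPKM in CT-179 replicates 1 and 3 and 126 FPKM in CT-179 replicate 2, against 77.6, 77.6 and 81.2 FPKM in vehicle. Pdia4 had 89.0 and 92.8 FPKM in CT-179 replicates 1 and 3 and 94.5 FPKM in CT-179 replicate 2, against 83.4, 85.6 and 85.4 FPKM in vehicle. Pdia3 had 107 and 113 FPKM in CT-179 replicates 1 and 3 and 127 FPKM in CT-179 replicate 2, against 102, 99.4 and 106 FPKM in vehicle. For all of them the CT-179 libraries lay above the vehicle libraries. Without replicate 2 the log2 differences were 0.10 ± 0.03 (SE), adjusted p = 0.017 for Pdia6, 0.10 ± 0.03 (SE), adjusted p = 0.017 for Pdia4 and 0.10 ± 0.03 (SE), adjusted p = 0.041 for Pdia3. Calr and all 3 isomerase genes missed the threshold in TPM, and Pdia3 and Pdia4 also after the length correction.

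The other chaperone genes did not pass. Hspa5 had 120.2 and 128 FPKM in CT-179 replicates 1 and 3 and 138 FPKM in CT-179 replicate 2, against 116, 113 and 120.4 FPKM in vehicle. The lowest CT-179 library fell just below the highest vehicle library. The log2 difference was 0.09, adjusted p = 0.081 without replicate 2 and 0.14, adjusted p = 0.17 with it. Without replicate 2, Hsp90b1 had a log2 difference of -0.01, Canx, the membrane-bound counterpart of Calr, one of -0.01, and Hyou1, an exchange factor for BiP, one of -0.02. The BiP partners Dnajb9, Dnajc3 and Sdf2l1 and the disulfide protein gene Creld2 were at 0.07, 0.05, 0.24 and 0.10. The median log2 difference of the 13 genes was 0.10 without replicate 2, beside -0.01 over all genes, and 0.17 beside -0.05 with all libraries, where a TPM scaling gave -0.02 beside -0.23.

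Sel1l, the adaptor of the ER degradation ligase, had 25.6 and 24.4 FPKM in CT-179 replicates 1 and 3 and 13.1 FPKM in CT-179 replicate 2, against 26.7, 26.7 and 27.0 FPKM in vehicle. All CT-179 libraries were lower, replicate 2 by most. The log2 difference was -0.10 ± 0.03 (SE), adjusted p = 0.032 without replicate 2, but it passed in FPKM and TPM only and not with median-of-ratios factors or the length correction. On the log2 scale, its partner ligase gene Syvn1 was at -0.14, adjusted p = 0.11, Edem1, which steers misfolded glycoproteins to degradation, at -0.01, and Herpud1, a scaffold of the same machinery, at -0.04. Xbp1 was at 0.13, adjusted p = 0.12 and Atf6 at -0.03, adjusted p = 0.52. Shorter transcripts had the higher differences at 144 h, with a Spearman's rho between exonic length and the log2 difference of -0.64 over the 35 genes and -0.58 over all tested genes, or -0.29 and -0.34 without replicate 2. At 144 h the summed astrocyte markers were 295 to 461 FPKM in CT-179 cells, against 470.3 to 477 FPKM in vehicle, and the SHH markers 32.9 to 53.6 FPKM in CT-179 cells, against 64.7 to 67.0 FPKM in vehicle. These CT-179 sums include replicate 2 and were not read without it. Within these lists the mean of Gfap lay the other way, at 109 FPKM in CT-179 and 93.7 FPKM in vehicle cells. Its libraries overlapped, at 93.8 to 121 FPKM in CT-179 and 85.9 to 98.4 FPKM in vehicle cells. Mycn also lay the other way, at a mean of 3.41 FPKM in CT-179 and 2.76 FPKM in vehicle cells. Aqp4 overlapped, at 11.4 to 27.5 FPKM in CT-179 and 23.0 to 26.4 FPKM in vehicle cells, while Slc1a3 and Gja1 lay lower in every CT-179 library. The part of transcript length, of these markers and of Malat1 in these results was not tested.

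At 24 h fewer of these genes were called. With all libraries in the shared fit, 0 of 35 genes passed limma's test, where 0% of all genes were called higher and 0.264% lower. An unadjusted p under 0.05 was reached by 0 of the 35, beside 640 of all 12510 genes. Leaving out the deviant 144 h library narrows the spread that the fit shares, and then 1 gene rose and 2 fell, against 8.08% and 14.1% of all genes. Psph had 20.2, 20.5 and 20.8 FPKM in CT-179 libraries, against 19.7, 19.5 and 17.9 FPKM in vehicle libraries, with no overlap, and a log2 difference of 0.10 ± 0.03 (SE), adjusted p = 0.043. Hyou1 had 55.0, 56.2 and 55.5 FPKM in CT-179 libraries, against 62.5, 61.2 and 59.4 FPKM in vehicle libraries, without overlap, and a log2 difference of -0.13 ± 0.02 (SE), adjusted p = 0.0038. Sel1l had 18.9, 18.9 and 19.8 FPKM in CT-179 libraries, against 20.5, 20.5 and 20.9 FPKM in vehicle libraries, also apart, and a log2 difference of -0.10 ± 0.03 (SE), adjusted p = 0.021. Psph was called higher and Sel1l lower at both times in this fit, but at 24 h Psph missed the threshold in TPM (adjusted p = 0.29), Sel1l with median-of-ratios factors (adjusted p = 0.29) and the length correction (adjusted p = 0.5), and Hyou1 with the length correction (adjusted p = 0.072). Hyou1 had a log2 difference of -0.02, adjusted p = 0.69 at 144 h. These counts moved with the scaling as well, to 7 higher and 1 lower with median-of-ratios factors, where 21% of all genes were higher and 8.62% lower, and to 0 higher and 9 lower in TPM, where 3.07% were higher and 26.9% lower.

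A direct test of whether the CT-179 effect differed at 144 h from that at 24 h called 0 of 35 genes, with 0 of them at an unadjusted p under 0.05 with all libraries, beside 574 of all 12510 genes, and 8 without replicate 2, beside 2049 of 12459. The smallest adjusted p without replicate 2 were for Asns, with a difference between log2 effects of -0.18 ± 0.05 (SE), adjusted p = 0.071, and Mthfd2, with -0.25 ± 0.07 (SE), adjusted p = 0.075. At 24 h both were near their vehicle levels. Asns then had 32.4, 31.8 and 33.9 FPKM in CT-179 libraries, against 33.2, 32.1 and 32.3 FPKM in vehicle libraries, and Mthfd2 had 28.0, 26.8 and 29.0 FPKM in CT-179 libraries, against 28.6, 27.0 and 27.6 FPKM in vehicle libraries, with overlapping groups. Over all genes the same test called 0 with all libraries, and 1.2% higher and 1.46% lower without replicate 2. 

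Other genes of these pathways changed little at 144 h with all libraries. Of 8 further lists, the only call was Slc7a11, the cystine importer gene, which was lower with CT-179 at 0.506 against 1.09 FPKM (-0.48, adjusted p = 0.012). Without replicate 2 more genes were called, beside the 11.8% higher and 16.9% lower of all genes, and no test of any list was run. Of the translocon and signal peptidase genes, 7 rose and 0 fell of 22, among them Sec11a at 30.3 against 26.9 FPKM (0.17, adjusted p = 0.00067) and Sec61g at 15.8 against 12.5 FPKM (0.32, adjusted p = 0.0025). Of other ER folding genes, 9 rose and 1 fell of 23, among them P4hb, a further disulfide isomerase, at 159.8 against 143 FPKM (0.16, adjusted p = 0.0014). The medians of these lists were 0.07 and 0.11, beside -0.01 over all genes, and their calls fell to 5 and 3 higher in TPM.

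The other lists split, beside the same 11.8% higher and 16.9% lower of all genes. Of other ATF4 targets in metabolism and transport, 3 rose and 3 fell of 16, with Slc7a1, an arginine and lysine transporter gene, at 2.76 against 3.44 FPKM (-0.24, adjusted p = 0.00045) and Got1, an aspartate aminotransferase gene, at 13 against 11.5 FPKM (0.17, adjusted p = 0.0037). Of the cytosolic tRNA synthetases, 3 rose and 1 fell of 20, with Vars at 19.4 against 22.5 FPKM (-0.20, adjusted p = 0.0012). Of the ER stress sensors and proteases, 4 rose and 1 fell of 11, with Rtcb, the ligase that joins spliced Xbp1, at 88.6 against 77.2 FPKM (0.20, adjusted p = 0.0046) and Ern1, which encodes IRE1, at 1.81 against 2.15 FPKM (-0.16, adjusted p = 0.03). Of the genes for eIF2 alpha kinases, phosphatase and exchange factor, 2 rose and 1 fell of 14. No regulator among 11 other ATF4 targets passed, and of other ER degradation genes, 1 rose and 0 fell of 17.

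Time in culture went with larger changes in these genes than CT-179 did, up to a log2 change of -2.65 for Mthfd2, beside -0.24 for the largest CT-179 difference past the threshold. Between 24 h and 144 h in vehicle, 11 of 35 genes rose and 18 fell, where 34.1% of all 12510 tested genes rose and 32.4% fell. Of the 13 ER chaperone genes 11 fell and 1 rose, and of the 16 ATF4 arm genes 8 rose and 6 fell. The median log2 change of the chaperones was -0.63 and that of the ATF4 arm 0.13, beside 0.01 over all genes. In CT-179 cells, 12 rose and 14 fell with all libraries (33.2% and 32.1% of all genes), and 14 rose and 19 fell without replicate 2 (43.9% and 41.7%). The CT-179 and vehicle time courses share no library. Across the 35 genes their log2 changes had a Pearson's r of 0.976, or 0.995 without replicate 2, beside 0.967 and 0.989 across all tested genes. Genes are not independent replicates and these values describe the libraries only.

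**Figure D4:**
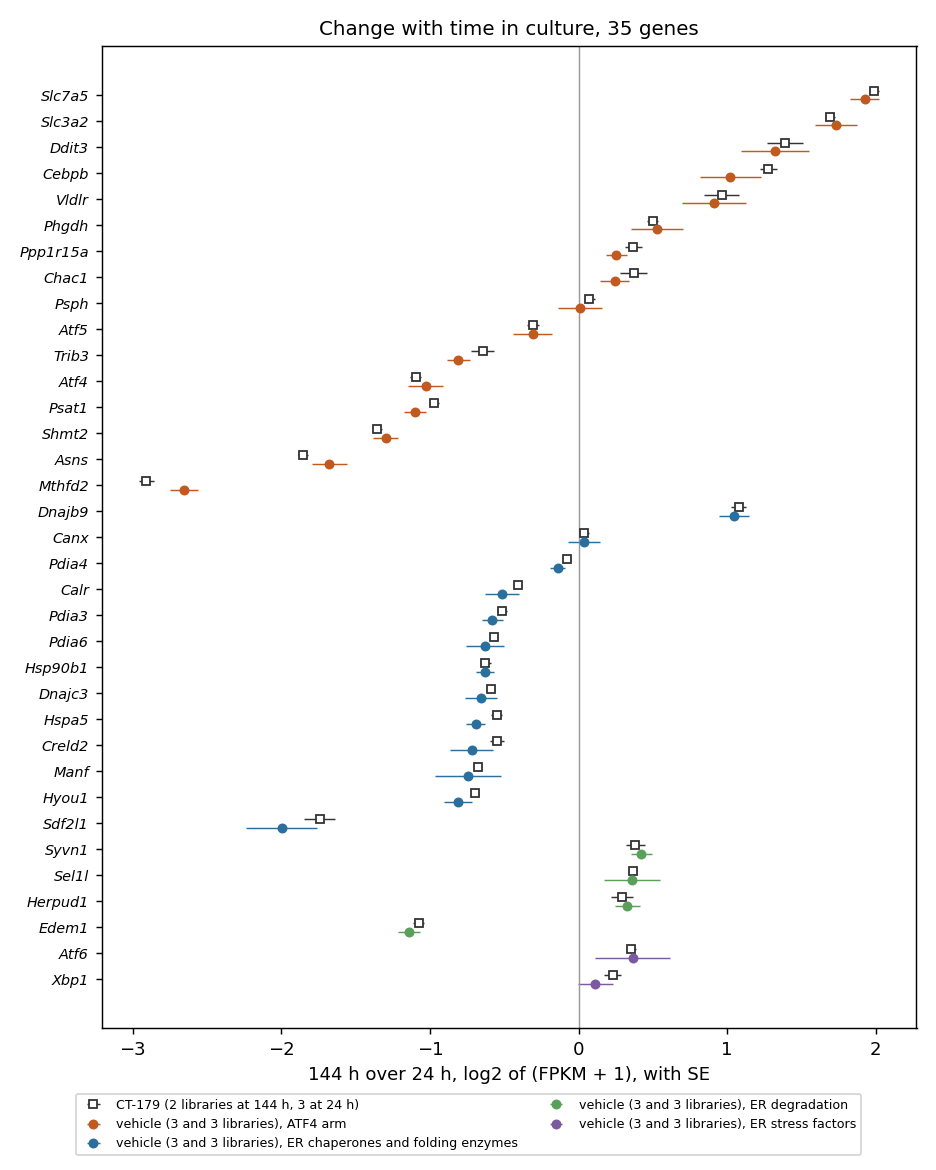
Log2 change from 24 h to 144 h on log2(FPKM + 1), 1 row per gene, grouped by arm. Open squares are CT-179 cells, with replicates 1 and 3 at 144 h, filled circles are vehicle cells, and bars give the SE. Vehicle values run from -2.65 for Mthfd2 to 1.93 for Slc7a5, and the 2 symbols of a gene lie close together.

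Enzymes of the serine, one-carbon and asparagine pathways made up the deepest falls of the ATF4 arm. Mthfd2 had 3.43, 3.59 and 3.66 FPKM at 144 h, against 28.6, 27.0 and 27.6 FPKM at 24 h in vehicle, a log2 change of -2.65 ± 0.09 (SE), adjusted p = 1.9e-09. Asns had 9.39, 9.40 and 9.68 FPKM at 144 h, against 33.2, 32.1 and 32.3 FPKM at 24 h, a log2 change of -1.68 ± 0.12 (SE), adjusted p = 3.7e-07. Shmt2 had 35.5, 35.7 and 35 FPKM at 144 h, against 90.2, 86.6 and 88.5 FPKM at 24 h, a log2 change of -1.30 ± 0.08 (SE), adjusted p = 1.6e-07. None of these groups came near to overlapping. Psat1 fell by 1.10 on the log2 scale (adjusted p = 2.3e-07) and Atf4 by 1.03 (adjusted p = 2.0e-05), to means of 62.3 and 36.6 FPKM at 144 h, against 135 and 75.7 FPKM at 24 h. Trib3 fell by 0.81. The enzymes of serine synthesis were not uniform, since Phgdh rose by 0.53 (adjusted p = 0.021) and Psph had a log2 change of 0.01, adjusted p = 0.96.

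The rises in the ATF4 arm were led by the exchanger subunits. Slc7a5, the light chain that imports leucine and other large amino acids, had 239, 238 and 235 FPKM at 144 h, against 64.6, 61.1 and 59.8 FPKM at 24 h, a log2 change of 1.93 ± 0.10 (SE), adjusted p = 3.2e-08. Slc3a2, its heavy chain, had 134, 133 and 134 FPKM at 144 h, against 40.8, 39.6 and 38.1 FPKM at 24 h, a log2 change of 1.73 ± 0.14 (SE), adjusted p = 1.3e-06. Both stood apart at the 2 times in every library. Ddit3 had 17.5, 16.9 and 15.7 FPKM at 144 h, against 7.01, 6.85 and 4.65 FPKM at 24 h, a log2 change of 1.32 ± 0.23 (SE), adjusted p = 0.00044, and Cebpb had 22.5, 23.0 and 22.4 FPKM at 144 h, against 11.1, 10.6 and 10.2 FPKM at 24 h, a log2 change of 1.02 ± 0.21 (SE), adjusted p = 0.0012. The libraries of each time did not overlap for either factor. Vldlr, Ppp1r15a and Chac1 also rose, by 0.91, 0.25 and 0.24, with adjusted p = 0.0033, 0.0074 and 0.047. Atf5 did not pass, with a log2 change of -0.31, adjusted p = 0.058.

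Among chaperones the fall was deepest for Sdf2l1, a stabiliser of ER folding complexes. It had 5.66, 4.42 and 6.06 FPKM at 144 h, against 25.7, 25 and 22.3 FPKM at 24 h, a log2 change of -2.00 ± 0.24 (SE), adjusted p = 2.7e-05. Hyou1, Manf, Creld2, Hspa5, Dnajc3, Hsp90b1, Pdia6, Pdia3, Calr and Pdia4 fell by 0.14 to 0.81 on the same scale, and Hspa5 averaged 117 ± 3.63 FPKM at 144 h, against 189 ± 4.21 FPKM at 24 h (SD, n = 3 each). Canx did not pass, with a log2 change of 0.04, adjusted p = 0.79. Dnajb9 (ERdj4), a BiP co-chaperone, was the exception that rose. It had 23.0, 23.0 and 22.2 FPKM at 144 h, against 9.89, 10.2 and 11.5 FPKM at 24 h, a log2 change of 1.04 ± 0.10 (SE), adjusted p = 4.9e-06. Of the degradation genes Edem1 fell and had 5.83, 5.78 and 5.78 FPKM at 144 h, against 13.9, 13.8 and 14.3 FPKM at 24 h, a log2 change of -1.14 ± 0.08 (SE), adjusted p = 2.5e-07. Syvn1 and Herpud1 rose, by 0.42 and 0.33 (adjusted p = 0.00035 and 0.0063). Sel1l and the factors Xbp1 and Atf6 did not pass with all libraries. Their log2 changes were 0.36, 0.11 and 0.36, with adjusted p = 0.12, 0.41 and 0.23. Sel1l and Atf6 passed once the deviant CT-179 library no longer entered the shared spread, where 44.2% of all genes rose and 43.4% fell.

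Other genes of these pathways also changed over time in vehicle, where 34.1% of all genes rose and 32.4% fell. Of 20 cytosolic tRNA synthetases, known ATF4 targets in part, 18 fell and 1 rose, among them Vars at 22.5 against 77.2 FPKM (-1.74, adjusted p = 4.8e-10) for 144 h against 24 h. Of other ATF4 targets in metabolism and transport, 4 rose and 10 fell of 16, led by the cytosolic serine hydroxymethyltransferase gene Shmt1 at 2.86 against 30.5 FPKM (-3.03, adjusted p = 1.8e-10) and the transsulfuration gene Cth at 1.08 against 10.05 FPKM (-2.41, adjusted p = 6.6e-10). Of other ATF4-target regulators, 6 rose and 5 fell of 11. Stc2, a secreted glycoprotein gene, fell and was at 0.914 against 6.36 FPKM (-1.94, adjusted p = 3.0e-10), and Ddit4, which restrains mTORC1, rose and was at 304 against 96.4 FPKM (1.65, adjusted p = 1.2e-07).

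The ER and eIF2 alpha lists were read beside the 34.1% of all genes that rose and 32.4% that fell, with no test of a list. Of other ER folding genes, 3 rose and 13 fell of 23, with Fkbp11, a prolyl isomerase gene, at 0.927 against 9.62 FPKM (-2.47, adjusted p = 2.9e-08). Of other ER degradation genes, 7 rose and 4 fell of 17, with the lectin gene Os9 at 76.3 against 33.6 FPKM (1.16, adjusted p = 1.1e-08). Of the translocon and signal peptidase genes, 4 rose and 11 fell of 22, of the sensors and proteases, 3 rose and 7 fell of 11, and of the eIF2 alpha genes, 2 rose and 8 fell of 14. The medians of the folding and degradation lists were -0.36 and 0.19, beside 0.01 over all genes.

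Marker genes of other cell types moved over the same interval. The summed level of 4 astrocyte markers, all of which rose, was 470.3 to 477 FPKM in vehicle at 144 h, against 102 to 105 FPKM at 24 h, with Gfap at 93.7 against 0.411 FPKM. In CT-179 cells the sum was 295 to 461 FPKM at 144 h, with replicate 2 included, against 100.4 to 103 FPKM at 24 h. Oligodendrocyte precursor markers summed to 633 to 652 FPKM in vehicle at 144 h, against 1014 to 1131 FPKM at 24 h. Olig1 and Olig2 carried that sum, and Pdgfra lay the other way, at a mean of 21.4 FPKM at 144 h, against 6.54 FPKM at 24 h. So did Sox10, at low means of 0.213 FPKM at 144 h, against 0.00376 FPKM at 24 h. The SHH markers summed to 64.7 to 67.0 FPKM in vehicle at 144 h, against 23.1 to 24.1 FPKM at 24 h. Among them Gli1 averaged 20.4 FPKM in vehicle at 144 h, against 2.45 FPKM at 24 h, whereas Zic1 averaged 16.1 FPKM at each time. The part of these shifts in the time results was not tested. Microglia, endothelium, choroid plexus and red cell markers each summed to at most 0.163 FPKM in every cell library.

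In whole brains no difference in these transcripts was detected beyond the spread between brains, which does not show that the groups were equal. Of the 34 genes that reached the filter on low values, which Trib3 missed, 0 passed limma's test and 0 had an unadjusted p under 0.05. Over all 13422 genes tested the call rate was 0%, with 490 genes at an unadjusted p under 0.05. Chac1, at the smallest p, had 6.06, 6.26 and 6.51 FPKM in CT-179 brains, against 5.64, 5.45 and 5.82 FPKM in vehicle brains. It was the only gene of the 35 whose groups did not overlap, where 5.71% of all tested genes lay wholly higher and 4.6% wholly lower, and its log2 difference was 0.13 ± 0.07 (SE), adjusted p = 0.97. Psat1 had 50.2, 49.3 and 47.3 FPKM in CT-179 brains, against 47.9, 43.2 and 42.2 FPKM in vehicle brains, with overlapping groups and a log2 difference of 0.14 ± 0.08 (SE), adjusted p = 0.97. Phgdh had 62.9, 54.1 and 55.8 FPKM in CT-179 brains, against 51.1, 50.8 and 54.4 FPKM in vehicle brains, also overlapping, with a log2 difference of 0.14 ± 0.08 (SE), adjusted p = 0.97. Mthfd2 had 5.91, 6.08 and 6.37 FPKM in CT-179 brains, against 5.51, 5.11 and 6.02 FPKM in vehicle brains, overlapping again, with a log2 difference of 0.12 ± 0.08 (SE), adjusted p = 0.97. The differences of the 34 genes ran from -0.13 to 0.21 on the log2 scale. The chaperone median was 0.06 and the ATF4 arm median 0.09, beside 0.02 over all genes, and in TPM they were -0.03 and -0.00 beside -0.07. With all libraries, TPM scaling changed the sign of 14 of the 34 differences and the length correction that of 8. Leaving out vehicle brain replicate 2 changed the sign of 9 of the 34 differences, and leaving out CT-179 brain replicate 1 also changed 9. The medians were not read without these libraries, so their direction is not settled.

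Vehicle brain replicate 2 was the lowest of the 6 brains for 16 of the 35 genes and the highest for 0. CT-179 brain replicate 1 was the lowest for 8 and the highest for 11, and vehicle brain replicate 1 the lowest for 5 and the highest for 10. Those 16 include Calr, Hspa5, Hsp90b1, Pdia3, Pdia4, Pdia6, Sdf2l1 and Xbp1, and Hspa5 had 81.3, 93.7 and 92.1 FPKM in CT-179 brains, against 108, 70.1 and 88.5 FPKM in vehicle brains. Within the vehicle brains Xbp1 had 32.9, 19.2 and 21.1 FPKM, a wider range than the distance between the group means of 24.6 FPKM in CT-179 and 24.4 FPKM in vehicle brains. The median coefficient of variation was 7.85% in CT-179 and 8.24% in vehicle brains, above the 2.07% of vehicle cells at 144 h. The summed choroid plexus markers were 1093 to 2382 FPKM in CT-179 brains, against 1039.6 to 1373 FPKM in vehicle brains, and the red cell markers 51.1 to 229 FPKM against 45.0 to 149 FPKM. Malat1 was at 36.4 to 67.7 FPKM in CT-179 brains, against 89.8 to 195 FPKM in vehicle brains. The part of these markers and of Malat1 in the brain values was not tested.

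In the authors' deposited table for the brains, whose log2 fold change runs vehicle over CT-179, 0 of the 35 genes had a false discovery rate under 0.05 and all had a rate of 1. In the authors' deposited table their fold changes ran from -0.15 to 0.14, and 17 genes in all had a rate under 0.05. The fold changes of the authors' deposited table followed the mean of vehicle replicates 1 and 3 over CT-179 across genes (Pearson's r 0.998) more closely than that of all vehicle replicates (r 0.692). The titles of the CT-179 brain libraries also hold the word vehicle, so the brain directions rest on the label for treatment.

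**Figure D5:**
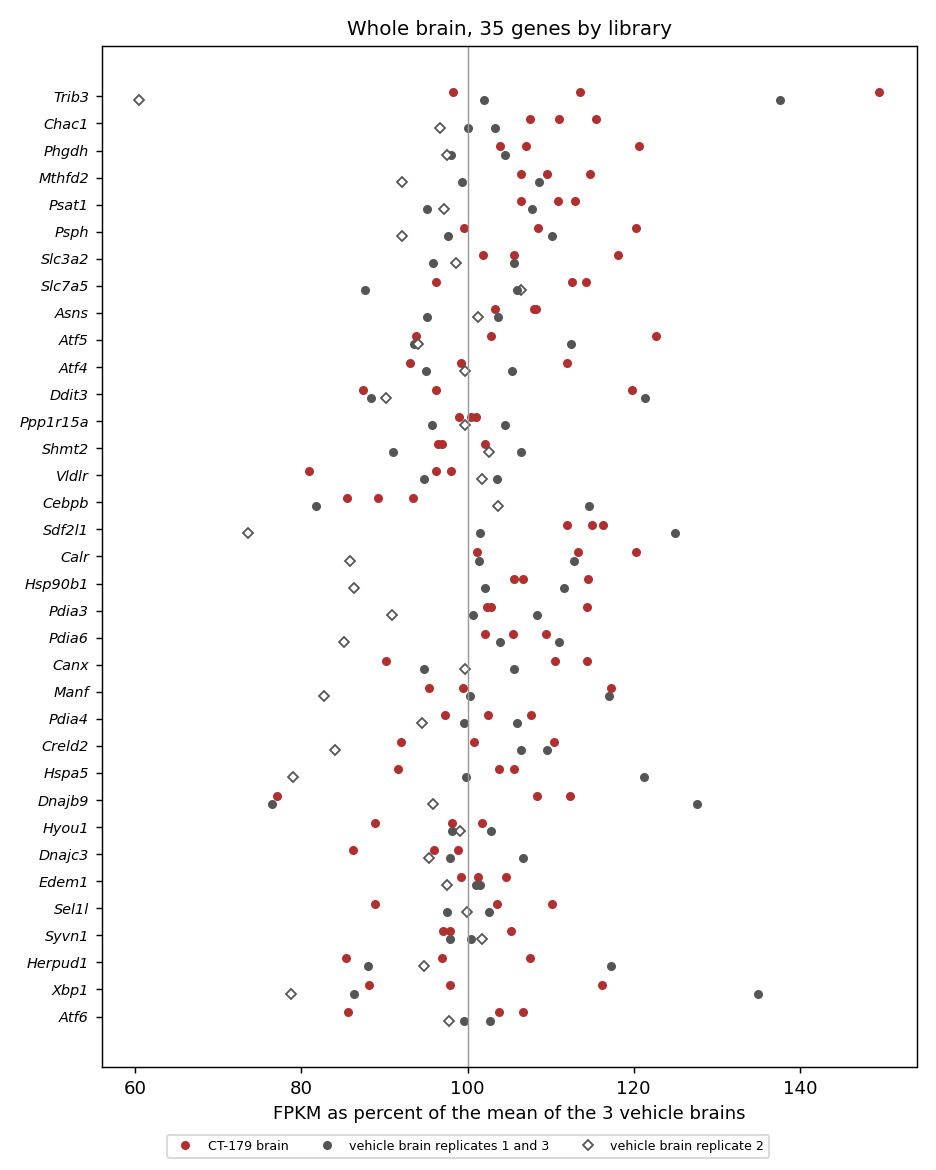
FPKM in each brain as a percentage of the mean of the 3 vehicle brains, 1 row per gene, with CT-179 brains above vehicle brains. The open diamond is vehicle brain replicate 2, which is the lowest of 6 for 16 genes, and the CT-179 and vehicle points overlap for all genes but Chac1.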

How the data were processed

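RNA was sequenced in 12 cell libraries and 6 whole-brain libraries, 3 in each of 6 groups taken from the treatment and time labels. Per the labels' protocols, RNA was purified with an RNeasy kit, a SMARTer mRNA kit was used for the libraries, and paired reads had 100 bases. The submitters' processing notes name mm10 and these tools: R 3.6, edgeR 3.28.1, HTSeq 0.6.1p2, STAR 2.6.0c and Trim Galore 0.5.0. Settings, annotation and strand of counting are not given in the sources used here. FPKM per gene in each library was deposited by the authors. Their brain table adds, per the file headers, deposited p-values, false discovery rates, likelihood ratio scores, log2 fold changes and mean log2 abundances.

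The 35 genes were matched by symbol. Of the 2 identifiers with the symbol Ddit3 in the cell table, the one with values above 0 was used. Depth was implied from the step of low values with exonic lengths of the GENCODE vM21 annotation: 89.2% to 91.1% of low values in cells and 93.1% to 97.7% in brain were whole multiples of 1 read (tolerance 0.1 read, up to 20 reads). FPKM values were not turned into counts. A gene was tested where 3 or more libraries of a fit reached 1 FPKM. Tests on log2(FPKM + 1) used limma 3.58.1 with R 4.3.3, two-sided, with a mean per group and a moderated variance with a trend, in 1 fit of the 12 cell libraries and 1 of the 6 brain libraries. Adjusted p-values are Benjamini-Hochberg values across every gene of the fit, called at 0.05. Log2 differences and changes are on this scale, which understates those of low genes. The procedure was also run on simulated data. The simulated spread in cells was taken without CT-179 144 h replicate 2, so that run does not represent the fit with that library. Alternatives were a pseudocount of 0.1, no filter, median-of-ratios and TPM scaling, a lowess correction for exonic length (span 0.3), a replicate block, a separate fit of each time, and leaving out each library. Those that combine leaving out CT-179 144 h replicate 2 with another scaling, the length correction or the block were added after the data were seen.

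The genes and the lists of other pathway genes and markers were chosen with earlier results of these data known. Values in every library are given for genes past the threshold with CT-179 with or without that replicate, filled up by smallest p to 6 in the ATF4 arm, for the 4 brain genes with the smallest p, and for the 5 largest falls and rises over time in vehicle. Atf4, Ddit3, Phgdh and Hspa5 at 144 h and Hspa5 and Xbp1 in brain were added after their values were seen. Other lists name up to 3 members with the smallest p at 144 h, with or without that replicate, or over time.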

Additional observations from a re-analysis of the deposited data

How the results depend on the processing

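CT-179 144 h replicate 2 decided the most. Leaving out each library in turn gave 0 to 11 of the 35 genes called at 144 h and 0 to 3 at 24 h, and in both cases every library but this one gave 0. It gave 122 to 3580 genes called in all at 144 h (486 with all libraries), 1 to 2762 at 24 h (33 with all libraries), and 0 to 331 for the difference between times (0 with all libraries), and the highest of each came without this library. At 144 h the lowest, 122, came without vehicle replicate 2. At 24 h, 1 gene was called without CT-179 replicate 1 or 2 or vehicle replicate 1 or 2 of that time. In brain the range was 0 to 1 gene in all and 0 to 0 of the 35. Over time in culture the 35 genes gave 26 to 32 calls in vehicle and 24 to 33 with CT-179. Beside these, 7456 to 10922 genes in all were called in vehicle and 7373 to 10670 with CT-179, of 12415 to 12493 tested.

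With all libraries, median-of-ratios scaling gave 15 genes in all at 24 h and TPM scaling 13. TPM scaling called 1 of the 35 at 144 h, Mthfd2, and 1 gene in all for the difference, where no filter gave 28 and the length correction 10. A separate fit of each time called 1996 genes in all (701 higher, 1295 lower) and 1 of the 35, Hyou1, which was lower, at 24 h, and 0 genes in all at 144 h. The cause was not tested. Without replicate 2, median-of-ratios scaling gave 3696 genes in all and 8 of the 35 at 24 h, 4191 and 16 at 144 h, and 309 in all for the difference. TPM scaling gave 3739 and 9, 3985 and 11, and 236. The length correction gave 2005 and 1, 2925 and 9, and 394. TPM scaling with all libraries moved the median log2 difference of all genes at 144 h by -0.19. Over time in culture, no call among the 35 genes with all libraries turned its direction. With CT-179, where no gene of the 35 was called with all libraries, directions of genes called at 144 h without replicate 2 did turn. Asns (-0.17) was at 0.10 without CT-179 replicate 1 and 0.07 without CT-179 replicate 3, which both keep replicate 2, and at 0.07 with all libraries and median-of-ratios scaling. With all libraries, TPM scaling put Psat1 at -0.10, Pdia3 at -0.02 and Pdia4 at -0.07, and the length correction put Pdia4 at -0.04.

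Whether the replicate numbers pair the cell libraries was not settled. Deviations of libraries with the same number correlated at -0.13 to 0.241, those with different numbers at -0.242 to 0.153, and 6 of 12 libraries matched their own number best. In brain the same-number correlations were -0.394 to 0.108. With the replicate block and all libraries, 2 genes in all were called at 24 h and 301 at 144 h, with 0 of the 35 at either time. With the block and without replicate 2, the counts were 2561 in all and 2 of the 35 at 24 h, 3089 and 9 at 144 h, and 150 in all for the difference. Psph at 24 h (adjusted p = 0.066 in limma) and Pdia3 and Sel1l at 144 h (adjusted p = 0.084 and 0.051) then missed the threshold. The block called 27 of the 35 over time in vehicle and 26 with CT-179, beside 8215 and 8079 of all 12510 genes, and 0 in brain, beside 0 in all.

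Trib3 lay under the filter in brain, where the lowest implied depth was 1.77e+07 reads, and 3 libraries in a group limit all comparisons. Differences of about 0.1 on the log2 scale rest on 2 CT-179 libraries at 144 h.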
